A study of Homo sapiens with 6 samples.

Results

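Huh7 cells, an established human hepatoma line that keeps much of the secretory programme of hepatocytes, were examined here for the transcripts of 10 apolipoproteins: APOA1, APOA2, APOA5, APOB, APOC1, APOC2, APOC3, APOE, APOH and APOM. The members were chosen by name, as the apolipoproteins that hepatocytes secrete, and each was a row of the 50868 genes listed in the deposited table. All 10 passed the filter on low counts and were among the 15055 genes tested. In the study, total RNA was sequenced 48 h after transfection by Lipofectamine 2000 with either a plasmid that overexpresses hsa_circ_0098181, a circular RNA made from exons of the SOX5 gene, or a control plasmid. Each group had 3 libraries from this 1 cell line, and both groups went through the same transfection and culture. Nothing in the labels says that the libraries came from separate cultures, so the p-values measure only the spread between these libraries, which may be technical.

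Apolipoproteins are the protein part of lipoproteins, the particles that carry triglyceride and cholesterol through blood. The liver releases very-low-density particles, each built around a single molecule of apolipoprotein B, and also the apolipoproteins A that form high-density particles. Smaller, exchangeable apolipoproteins move between particles and set how fast lipoprotein lipase and hepatic receptors act on them. Several of these genes stand in clusters, one on chromosome 11 and one on chromosome 19. APOA1, APOA2, APOA5 and APOC3 are known to respond to ligands of PPARA, the nuclear receptor of fatty acid metabolism that the study examined.

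The libraries held 11130902 to 14138262 counts. SOX5, the host gene of the circle, checked the labels, with counts of 26907, 33577 and 24906 in overexpression replicates 1 to 3 and of 453, 404 and 380 in control replicates 1 to 3. All 8 hepatocyte markers examined (ALB, TTR, SERPINA1, TF, FGB, AHSG, HNF4A and AFP) reached at least 1 CPM (counts scaled to a fixed library size) in each library. Their summed level was 25420 to 26716 CPM in the overexpression group and 22749 to 27358 CPM in the control group. Of 6 enterocyte markers 4 reached 1 CPM in each library, led by VIL1, with sums of 443 to 458 and 416 to 466 CPM, and FABP2 was at 0. Of 6 macrophage markers 3 did so, led by LYZ (492 to 535 and 440 to 477 CPM, with CD163 and MARCO under 1 CPM). Of 6 fibroblast or stellate cell markers 4 did so (22.8 to 26.0 and 23.3 to 26.1 CPM, with COL1A1 and DCN under 1 CPM). Of 4 endothelial markers 1, PECAM1, did so (54.4 to 55.6 and 46.9 to 59.2 CPM), and CDH5 was at 0. Control replicate 1 stood apart from the rest: mitochondrial genes took 9.29% of its counts against 6.32% to 7.04% elsewhere, and its genes lay farthest from their means over the libraries (root mean square 0.401 on the log2 scale against 0.308 to 0.353).

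No apolipoprotein passed the test between the groups. The quasi-likelihood test of edgeR, with p adjusted by Benjamini and Hochberg's method, called 0 of the 10 at an adjusted p below 0.05, and 0.0399% of all tested genes, with adjusted p of the members from 0.797 to 0.999. DESeq2 also called 0 of the 10. An unadjusted p below 0.05 was found for 2 members, APOA2 and APOB, beside 5.5% of all genes. The 3 values of one group lay clear of the other for APOA2 and APOE, both with overexpression above control, beside 12.9% of all genes. The fitted difference was positive for 7 members and negative for 3, with a median log2 fold change of 0.16, beside a median of 0.0023 over all genes, of which 50.5% were positive. Members are not replicates of the treatment, and several lie next to each other in the genome. In bulk RNA of this kind, a smaller number of cells with a transcript and less of it per cell cannot be told apart.

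The 10 transcripts covered a wide range of levels. Compared per kilobase of merged exons, which puts genes of different length on one scale, APOA2 was the highest with a mean of 1410 CPM per kb over the 6 libraries and ranked 18 among the 50111 genes with a length. APOB followed with 641, APOE with 393 and APOA1 with 242 CPM per kb. Next in order were APOH with 88.9, APOC1 with 74.0, APOM with 36.4, APOC3 with 24.0 and APOC2 with 10.4 CPM per kb. The APOC2 level holds only the counts assigned to APOC2, and its place in the order depends on that assignment. APOC4-APOC2, a gene that covers all of APOC2, held 663 to 1991 counts per library against 96 to 285 for APOC2. APOA5 was the lowest with 1.24 CPM per kb and rank 11926. The ranges over the 6 libraries overlapped for the neighbours APOB and APOE and for APOH and APOC1, where the first of each pair was higher in 5 of 6 libraries. Those of APOM and APOC3 and of APOC3 and APOC2 overlapped as well, although the order was the same in all 6 libraries. Every other pair of neighbours was separated. By the FPKM values that the authors deposited, 8 of the 10 kept their place and APOB stood above APOA2. The length implied by those values for APOA2 was 2997 bases, against 945 bases of merged exons. For APOB it was 17073 against 14828 bases, and it was above the merged exon length for every other member too. Which of APOA2 and APOB stood highest thus depends on the length used.

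**Figure D1:**
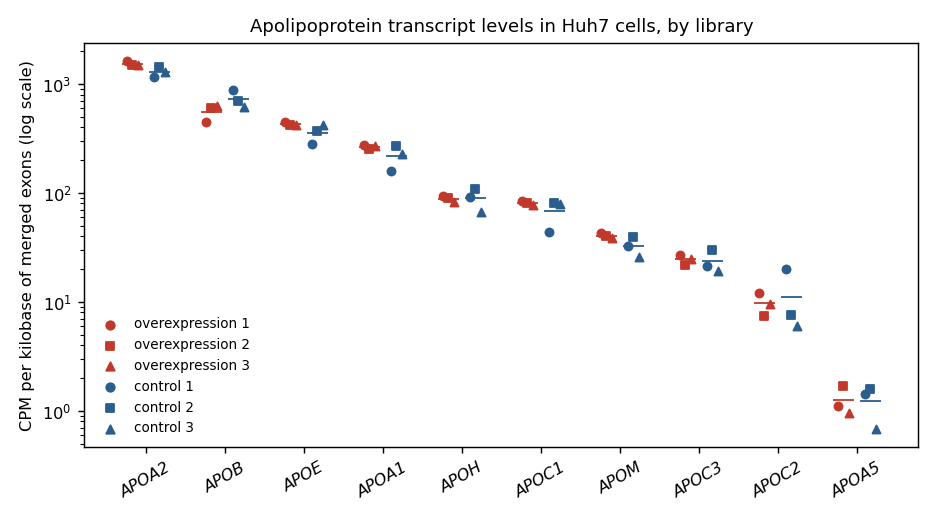
Level of each apolipoprotein transcript in CPM per kilobase of merged exons (log scale), ordered from the highest to the lowest mean. APOC2 is plotted without the counts of APOC4-APOC2, the gene that covers it. Each symbol is 1 library and each short line a group mean of 3; the levels run from 1410 for APOA2 down to 1.24 for APOA5, and the SD of the control libraries is the larger one for all 10 genes.

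Promoter sequences are shown for 3 members that mark the ends of this range and the gene whose reads are hardest to assign. The 250 bases before the start of transcription were taken from RefSeq (GRCh38.p14), which gave entries for 7 of the 10 members. They are written 5′ to 3′ on the strand of the gene, and capitals mark a pair of motifs. AGGTCA is only a part of the element bound by nuclear receptors such as PPARA and reads TGACCT from the opposite strand. TATAAA is the classical core promoter element that positions the start of transcription. Shown is the promoter of APOA2 (chr1:161223629-161223878, minus strand), the highest member per kilobase of merged exons. The others are those of APOA5 (chr11:116792421-116792670, minus strand), the lowest, and of APOC2 (chr19:44945801-44946050, plus strand), which lies inside a longer annotated gene.
APOA2: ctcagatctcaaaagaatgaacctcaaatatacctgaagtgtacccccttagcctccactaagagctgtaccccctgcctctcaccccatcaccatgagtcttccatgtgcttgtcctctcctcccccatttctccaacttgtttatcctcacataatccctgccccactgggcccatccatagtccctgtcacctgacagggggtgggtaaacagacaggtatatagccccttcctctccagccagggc
APOA5: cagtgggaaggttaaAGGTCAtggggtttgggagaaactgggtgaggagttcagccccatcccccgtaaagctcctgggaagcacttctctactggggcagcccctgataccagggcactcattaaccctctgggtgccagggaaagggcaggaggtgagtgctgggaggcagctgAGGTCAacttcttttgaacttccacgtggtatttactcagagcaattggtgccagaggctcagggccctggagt
APOC2: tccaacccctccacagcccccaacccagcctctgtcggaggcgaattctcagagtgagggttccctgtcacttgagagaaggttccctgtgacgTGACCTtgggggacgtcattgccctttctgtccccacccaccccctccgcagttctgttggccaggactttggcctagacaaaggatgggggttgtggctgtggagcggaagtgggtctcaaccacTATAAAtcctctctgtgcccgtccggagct
In the APOA5 promoter AGGTCA began 235 and 74 bases before the start, and a second annotated APOA5 promoter held it at 156 bases. The APOC2 promoter held TGACCT at 156 bases and TATAAA at 30 bases before the start, and the APOA2 window held neither motif. Searched on both strands with exact letters and no overlap between the motifs, AGGTCA was found in 3 of the 10 annotated promoters of these 7 members, beside 12.1% of 35116 promoters of the same length, and TATAAA in 1 of the 10, beside 10.7%. A match describes the letters in this window only.

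APOB encodes the large structural protein of very-low-density and low-density lipoproteins (ENSG00000084674, chromosome 2, 21001429 to 21044073, minus strand, hg38). With its transcript of 14121 bases in 29 exons it ranked 4 among all genes by counts. APOB was measured at 6595, 8846 and 9234 CPM in overexpression replicates 1 to 3, and at 12939, 10252 and 9127 CPM in control replicates 1 to 3. Overexpression replicate 1 was the lowest library and control replicate 1 the highest, and the groups overlapped because control replicate 3 lay below overexpression replicate 3. APOB averaged 8225 ± 1425 CPM in the overexpression group and 10773 ± 1959 CPM in the control group (SD, n = 3 each). The log2 fold change was -0.39 (SE 0.17, 95% interval -0.77 to -0.0089), with an unadjusted p of 0.0459 and an adjusted p of 0.797 by edgeR, and an exact permutation test gave p = 0.2. Without control replicate 1 the log2 fold change of APOB was -0.23, and without overexpression replicate 1 it was -0.25.

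APOB made up most of the counts of the 10 members. Together the 10 genes took 0.984%, 1.20% and 1.24% of all counts in the overexpression libraries and 1.47%, 1.31% and 1.18% in the control libraries, and these ranges overlapped. APOB made up 66.9%, 74.6% and 75.5% of the members' counts in the overexpression libraries and 85.4%, 78.1% and 77.1% in the control libraries, which did not overlap. The remaining 9 genes took 0.325%, 0.304% and 0.303% of all counts against 0.215%, 0.288% and 0.270%, also without overlap. The control share was lowest in control replicate 1.

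APOA1 and APOA2 encode the main proteins of high-density lipoprotein. APOA1, which activates the cholesterol-esterifying enzyme LCAT (ENSG00000118137, chromosome 11, 116835751 to 116837950, minus strand), was measured at 393, 364 and 381 CPM in the overexpression libraries and at 224, 381 and 322 CPM in the control libraries. Control replicate 1 was the lowest by far, while control replicate 2 lay level with overexpression replicate 3, so the groups overlapped. The mean of the overexpression group was 379 ± 14.7 CPM and that of the control group 309 ± 79.2 CPM (SD, n = 3 each). This gave a log2 fold change of 0.29 (SE 0.17, 95% interval -0.098 to 0.69, edgeR adjusted p 0.797). An exact permutation test of the APOA1 values gave p = 0.3. The APOA1 log2 fold change was 0.11 without control replicate 1 and 0.47 without control replicate 2 (edgeR unadjusted p 0.02, adjusted p 0.672).

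APOA2 (ENSG00000158874, chromosome 1, 161222292 to 161223631, minus strand) was measured at 1533, 1403 and 1403 CPM in the overexpression libraries and at 1089, 1341 and 1228 CPM in the control libraries. Each overexpression library lay above each control library, and control replicate 1 was again the lowest. The means were 1446 ± 75.0 and 1219 ± 126 CPM (SD, n = 3 each), and the log2 fold change 0.25 (SE 0.10, 95% interval 0.018 to 0.47). The unadjusted p of 0.0377 became 0.797 after adjustment over all genes by edgeR. An exact permutation test gave p = 0.1, the smallest that 3 against 3 libraries allow. Without control replicate 1 the difference of APOA2 was 0.17 on the log2 scale.

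APOM carries sphingosine 1-phosphate on high-density particles (ENSG00000204444, chromosome 6, 31652416 to 31658210, plus strand). Its level was 70.7, 66.4 and 63.7 CPM in the overexpression libraries and 54.2, 64.9 and 42.5 CPM in the control libraries. Control replicate 3 was the lowest, and control replicate 2 lay inside the overexpression range. With means of 67.0 ± 3.52 and 53.9 ± 11.2 CPM (SD, n = 3 each), the log2 fold change of 0.31 was the most positive of the 10 (SE 0.15, 95% interval -0.027 to 0.66, edgeR adjusted p 0.797). An exact permutation test of the APOM values gave p = 0.2, and leaving out control replicate 3 or 2 gave log2 fold changes of 0.17 and 0.47. APOM overlaps BAG6, on the opposite strand, by 290 bases, and BAG6 had 2035 to 2881 counts per library against 517 to 999 for APOM. How strand was handled in the counting was not given in the sources used here. The sum of both genes had a log2 fold change of 0.059. Most counts of this sum were those of BAG6, so it cannot show how the overlap bears on APOM.

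APOE is the ligand by which hepatic receptors take up remnant particles (ENSG00000130203, chromosome 19, 44905754 to 44909393, plus strand). It was measured at 990, 926 and 914 CPM in the overexpression libraries and at 622, 808 and 911 CPM in the control libraries. The groups did not overlap, but control replicate 3 and overexpression replicate 3 lay next to each other, and control replicate 1 was the lowest. The means were 943 ± 40.8 and 780 ± 146 CPM (SD, n = 3 each), and the log2 fold change was 0.27 (SE 0.14, 95% interval -0.037 to 0.58, edgeR adjusted p 0.797). An exact permutation test of the APOE values gave p = 0.1, the smallest possible. The log2 fold change of APOE was 0.14 without control replicate 1 and 0.40 without control replicate 3.

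APOC1, which inhibits the cholesteryl ester transfer protein and lies just behind APOE (ENSG00000130208, chromosome 19, 44914247 to 44919349, plus strand), was low in a single library. Its level was 103, 99.3 and 94.7 CPM in the overexpression libraries and 53.5, 99.6 and 97.1 CPM in the control libraries. Control replicates 2 and 3 lay within the overexpression range, and only control replicate 1 was below it. The means were 98.9 ± 4.03 and 83.4 ± 25.9 CPM (SD, n = 3 each), and the log2 fold change was 0.25 (SE 0.21, 95% interval -0.24 to 0.73, edgeR adjusted p 0.826). The APOC1 log2 fold change was 0.011 without control replicate 1, 0.39 without control replicate 2 and 0.37 without control replicate 3.

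APOC2, APOC3 and APOA5 act on lipoprotein lipase, the enzyme that frees fatty acids from triglyceride-rich particles. APOC3 holds the enzyme back (ENSG00000110245, chromosome 11, 116829706 to 116833072, plus strand) and was measured at 23.4, 18.98 and 21.4 CPM in the overexpression libraries and at 18.4, 26.1 and 16.5 CPM in the control libraries. The control libraries enclosed the overexpression libraries on both sides. The log2 fold change of APOC3 was 0.066 (SE 0.18, 95% interval -0.35 to 0.48, edgeR adjusted p 0.945). APOC3 was at -0.063 when control replicate 3 was left out and at 0.29 when control replicate 2 was.

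APOA5 promotes the action of the lipase (ENSG00000110243, chromosome 11, 116789367 to 116792420, minus strand) and was close to the lower end of what this depth could measure. APOA5 had 30, 46 and 23 counts in the overexpression libraries and 30, 36 and 16 in the control libraries, which gave 2.12, 3.28 and 1.86 against 2.77, 3.07 and 1.32 CPM. The groups overlapped widely. The log2 fold change of 0.033 had an SE of 0.37 and a 95% interval from -0.81 to 0.87 (edgeR adjusted p 0.987), so a difference of moderate size was not detectable at this depth.

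APOC2 is the activator that lipoprotein lipase requires (ENSG00000234906, chromosome 19, 44946035 to 44949565, plus strand). It was measured at 15.9, 9.71 and 12.6 CPM in the overexpression libraries and at 26.3, 9.96 and 7.90 CPM in the control libraries. Control replicate 1 was the highest and control replicate 3 the lowest, on either side of all overexpression libraries. The log2 fold change was -0.20 (SE 0.42, 95% interval -1.16 to 0.76, edgeR adjusted p 0.924), the widest interval of the 10 and the only one that reached a 2-fold difference.

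The APOC2 count cannot be read alone, because the whole gene lies within APOC4-APOC2, an annotated read-through gene on the same strand (ENSG00000224916, chromosome 19, 44942238 to 44949565). APOC4-APOC2 held 1991, 1603 and 1357 counts with overexpression and 663, 1382 and 1129 in the control libraries, while APOC2 held 224, 136 and 156 against 285, 117 and 96. The upstream gene APOC4 itself had 0 to 2 counts. How reads that fall in both genes were assigned was not given in the sources used here. APOC2 took 10.1%, 7.82% and 10.3% of the sum of both in the overexpression libraries, and 30.1%, 7.81% and 7.84% in the control libraries, so the split was unlike the rest in control replicate 1 alone. The sum was 157, 124 and 122 CPM against 87.5, 128 and 101 CPM, where control replicate 1 was the lowest and not the highest. Its log2 fold change was 0.35 (SE 0.16, edgeR adjusted p 0.797), the opposite sign to that of APOC2 alone, and APOC4-APOC2 by itself gave 0.42 (SE 0.22, edgeR adjusted p 0.797). Without control replicate 1 the log2 fold change of APOC2 alone was 0.51.

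**Figure D2:**
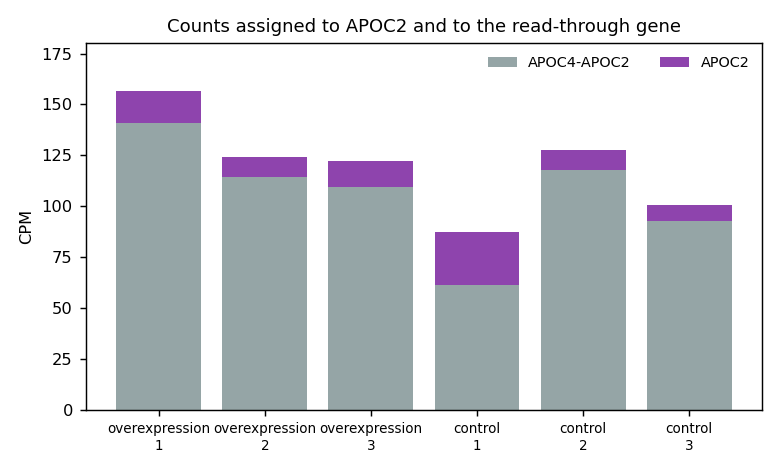
CPM assigned to APOC2 (purple) and to the read-through gene APOC4-APOC2 (grey), stacked, in each of the 6 libraries. APOC2 takes 7.81% to 10.3% of the sum in 5 libraries and 30.1% in control replicate 1, where the sum of 87.5 CPM is the lowest.

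APOH, a plasma glycoprotein that binds anionic phospholipids (ENSG00000091583, chromosome 17, 66212033 to 66256525, minus strand), was measured at 125, 120 and 109 CPM in the overexpression libraries and at 121, 146 and 88.6 CPM in the control libraries. The control libraries lay on both sides of the overexpression libraries. The means of 118 ± 8.21 and 119 ± 28.8 CPM (SD, n = 3 each) gave a log2 fold change of -0.0030 (SE 0.17, 95% interval -0.39 to 0.38, edgeR adjusted p 0.999). Exact permutation tests of APOA5, APOC1, APOC2, APOC3 and APOH gave p from 0.5 to 0.9. Of the other annotated overlaps of members, that of APOA1 with APOA1-AS involved 0 to 3 counts per library, and that of APOC1 and APOE with CTB-129P6.7 involved 10 to 17.

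**Figure D3:**
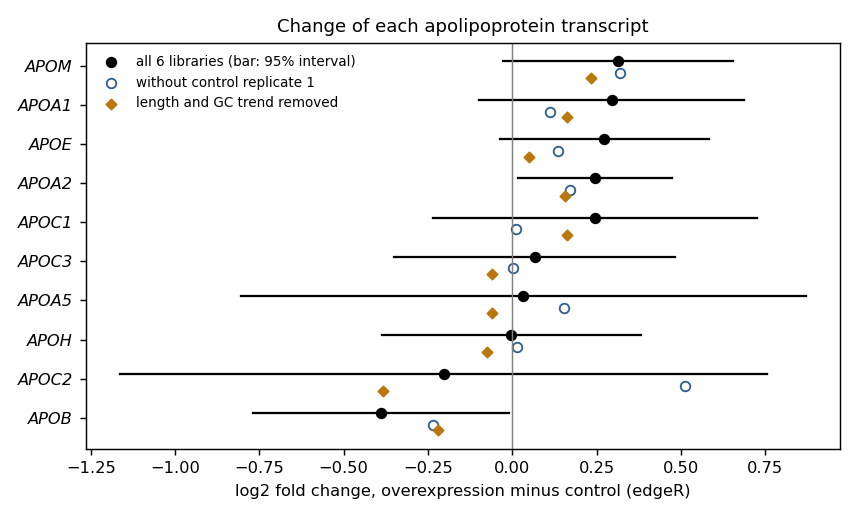
Log2 fold change of each apolipoprotein transcript, overexpression minus control, by edgeR. Black points and bars are the fit of all 6 libraries with its 95% interval, open circles leave out control replicate 1, and diamonds are the fit with length and GC trends removed; APOC2 goes from -0.20 to 0.51 without control replicate 1, and APOC1 from 0.25 to 0.011.

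The libraries did not share the extremes evenly. Control replicate 1 was the lowest library for 4 members (APOA1, APOA2, APOC1 and APOE) and the highest for 2 (APOB and APOC2), and it was the lowest for 26.5% and the highest for 26.6% of all tested genes. Control replicate 3 was the lowest for 5 members and for 16.4% of all genes. Overexpression replicate 1 was the highest for 5 members and the lowest for APOB, beside 19.1% and 20.2% of all genes. Without control replicate 1 the log2 fold changes were positive for 9 members and negative for 1, APOB, with a median of 0.12. The part of its higher mitochondrial share in these values was not tested. Leaving out control replicate 2 gave 8 positive and 2 negative values (median 0.29), and leaving out control replicate 3 gave 5 and 5 (median 0.054). Leaving out overexpression replicate 1 or 2 gave 6 and 4 (medians 0.16 and 0.19), and without overexpression replicate 3 there were 8 and 2 (median 0.23). The variation between libraries of one group was 3.88% to 31.3% of the mean with overexpression and 10.4% to 68.5% with the control plasmid.

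Transcript length was compared with the position of the members in overexpression replicate 1 and control replicate 1. APOB is the one member of more than 2 kb, since the longest coding transcripts of the other 9 had 530 to 1929 bases. Over all 1222 tested genes under 1 kb, the median difference from the mean of the libraries was 0.15 on the log2 scale in overexpression replicate 1 and -0.18 in control replicate 1. Over the 1111 genes of 8 kb and more it was -0.20 in overexpression replicate 1 and 0.16 in control replicate 1, while in the other 4 libraries neither class was off by more than 0.044. The median log2 fold change between the groups was 0.11 for the shortest and -0.14 for the longest genes. APOB differed from its own mean over the libraries by -0.50 in overexpression replicate 1 and by 0.47 in control replicate 1, and APOC1 by 0.20 and -0.73. Other short members did not follow the median of short genes in control replicate 1, where APOC2 differed by 1.06, APOA5 by 0.27 and APOH by 0.047, and APOA5 differed by -0.11 in overexpression replicate 1. The APOC2 value depends on the split with APOC4-APOC2, and the sum of both was lowest in control replicate 1 (87.5 CPM). APOA5 had only 30 counts in overexpression replicate 1 and 30 in control replicate 1. After the dependence of each library on the length and GC content of transcripts was removed, a fit added after seeing the data, 5 members were positive and 5 negative with a median of -0.0051. In that fit the log2 fold change of APOB was -0.22, that of APOA2 0.16 and that of APOE 0.049. The part of length in these differences was not tested further.

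**Figure D4:**
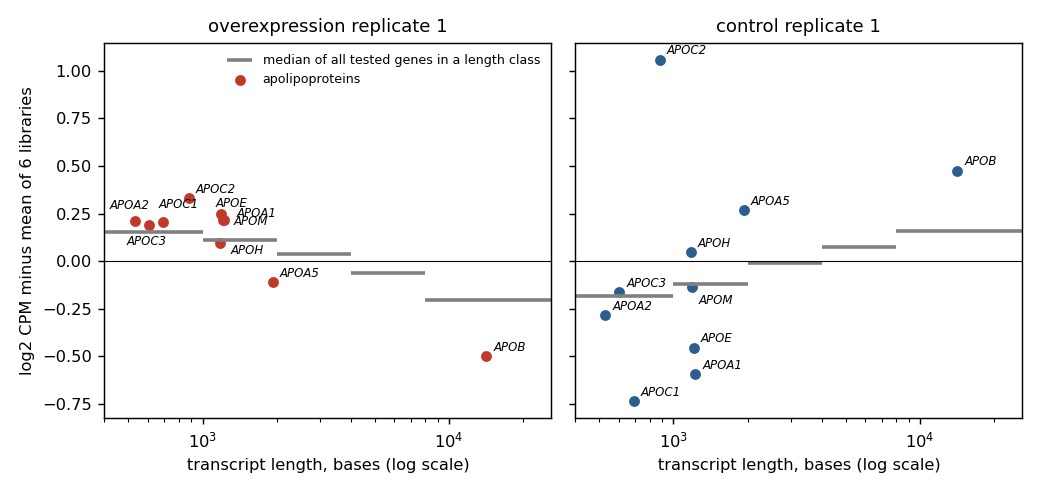
Difference of each apolipoprotein's log2 CPM from its mean over the 6 libraries, against transcript length (log scale), in overexpression replicate 1 (left) and control replicate 1 (right). Grey lines are the medians of all tested genes in 5 length classes, and they fall with length on the left (0.15 to -0.20) and climb on the right (-0.18 to 0.16), with APOB at the far end in both panels.

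Ratios within a library compare members free of the total count, though not of transcript length. The ratio of APOB to APOA1 counts was 16.8, 24.3 and 24.2 in the overexpression libraries. It was 57.7, 26.9 and 28.4 in the control libraries, which did not overlap, although without control replicate 1 the gap was narrow. The APOB transcript has 14121 bases and that of APOA1 1227, and the part of length in this ratio was not tested. The ratio of APOC1 to its neighbour APOE was 0.104, 0.107 and 0.104 against 0.0861, 0.123 and 0.107. That of APOA1 to APOA2 was 0.256, 0.259 and 0.272 against 0.206, 0.284 and 0.262. In both of these pairs the control libraries enclosed the overexpression libraries.

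In the chromosome 11 cluster, which spans 48584 bases, APOA5, APOC3 and APOA1 had a median log2 fold change of 0.066. APOA4, which stands between APOA5 and APOC3 and is mainly an intestinal apolipoprotein, had 41 to 62 counts per library. APOA1 and APOC3 lie 2678 bases apart on opposite strands, and the ratio of their counts was 16.8, 19.2 and 17.8 in the overexpression libraries and 12.2, 14.6 and 19.5 in the control libraries, which overlapped. In the chromosome 19 cluster, which spans 43812 bases, APOE, APOC1 and APOC2 had a median of 0.25, and the pseudogene APOC1P1 between them had 6 to 13 counts. That median is the APOC1 value, which was 0.011 without control replicate 1. After the length and GC correction APOE was at 0.049, APOC1 at 0.16 and APOC2 at -0.38. Summed with APOC4-APOC2, APOC2 was at 0.35. Over the 4 genes known to respond to PPARA ligands (APOA1, APOA2, APOA5 and APOC3) the median was 0.16, with 4 positive values, beside 50.5% of all genes, and 0 called. The grouping took no account of the direction in which each gene responds to the ligands, so equal signs are not a measure of PPARA activity. For 2 of the 4 the sign was not stable, since without control replicate 3 APOA5 was -0.26 and APOC3 -0.063, and after the length and GC correction they were -0.059 and -0.061.

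PPARA itself was measured at 24.2, 7.42 and 11.4 CPM in the overexpression libraries and at 6.37, 5.45 and 7.32 CPM in the control libraries. The groups did not overlap, with overexpression replicate 1 far above the others. Its log2 fold change of 1.17 (SE 0.40) had an unadjusted p of 0.018 and an adjusted p of 0.797 by edgeR. Of the 20 regulators of apolipoprotein genes examined, all were tested and 0 were called, with 12 positive and 8 negative values and a median log2 fold change of 0.026. CEBPA, a liver transcription factor, was at 350, 325 and 329 CPM against 216, 309 and 277 CPM (log2 fold change 0.32, SE 0.13, and 0.19 without control replicate 1). CREB3L3, a membrane-bound factor that acts on APOA5 and other lipid genes, was at 48.1, 39.0 and 38.8 CPM against 67.2, 54.8 and 47.0 CPM (-0.42, SE 0.15, and -0.28 without control replicate 1). The edgeR adjusted p was 0.797 for CEBPA and for CREB3L3. HNF4A, a nuclear receptor that drives many of the apolipoprotein genes, was at 76.2, 114 and 85.6 CPM in the overexpression libraries. In the control libraries HNF4A was at 197, 100 and 105 CPM, so control replicate 1 had the most of it. In that library APOA1, APOA2, APOC1 and APOE were lowest, while APOB and APOC2 were highest. The HNF4A log2 fold change of -0.54 (SE 0.27, edgeR adjusted p 0.797) was -0.16 without that library, and whether these levels are related was not tested. The HNF4A transcript has 6445 bases. In control replicate 1 the median difference from the mean of the libraries was 0.073 for genes of 4 to 8 kb. It was -0.12 for genes of 1 to 2 kb and -0.18 for genes under 1 kb, and the part of length in the HNF4A values was not tested.

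Genes that assemble, bind or remodel lipoproteins gave 0 calls as well. For assembly and secretion 16 of 17 genes were tested, with 9 positive, 7 negative and a median log2 fold change of 0.064. Of these, SMLR1, which takes part in the secretion of very-low-density lipoprotein, was at 49.0, 46.7 and 46.1 CPM against 37.5, 44.0 and 38.3 CPM without overlap (log2 fold change 0.24, SE 0.10, edgeR adjusted p 0.797). P4HB, a subunit of the transfer complex that loads lipid onto apolipoprotein B, was at 916, 822 and 999 CPM against 707, 686 and 927 CPM, which overlapped. SEC24D and SEC24A, coat proteins of the vesicles that leave the endoplasmic reticulum, had log2 fold changes of -0.18 each, and of -0.12 and -0.067 without control replicate 1. For SEC24A each overexpression library (178, 181 and 180 CPM) lay below each control library (234, 190 and 187 CPM), while SEC24D overlapped.

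For receptors and uptake 12 of 14 genes were tested, with 5 positive, 7 negative and a median log2 fold change of -0.15. The median was -0.044 after the length and GC correction, and -0.15 to -0.081 when 1 library was left out. LRP1 and LRP8, receptors that bind apolipoprotein E among other ligands, had log2 fold changes of -0.21 and -0.16. LRP1 was at 603, 797 and 777 CPM in the overexpression libraries against 911, 814 and 783 CPM in the control libraries. LRP8 was at 60.2, 66.9 and 66.4 CPM against 79.2, 65.7 and 71.8 CPM. Control replicate 1 was the highest library for both genes, and overexpression replicate 1 the lowest. Their transcripts have 14897 and 7648 bases, and the part of length in these values was not tested. The groups overlapped for both (edgeR adjusted p 0.797 each), and without control replicate 1 the values were -0.14 and -0.090.

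For lipid enzymes, transfer proteins and exporters 10 of 13 genes were tested, with 4 positive, 6 negative and a median log2 fold change of -0.096. LCAT, the enzyme that APOA1 activates, was at 10.7, 13.1 and 10.5 CPM against 9.97, 9.20 and 8.56 CPM, without overlap (log2 fold change 0.31, SE 0.15, edgeR adjusted p 0.797). ANGPTL4 and ANGPTL8, secreted inhibitors in the lipase pathway, had values of -0.42 and 0.62, and ABCG8, a sterol exporter, had -0.30.

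Among 17 other apolipoproteins and associated proteins 9 were tested, with 5 positive, 4 negative and a median log2 fold change of 0.020. PON1, an esterase carried on high-density lipoprotein, was at 27.9, 26.5 and 25.5 CPM in the overexpression libraries and at 20.1, 23.1 and 18.8 CPM in the control libraries, and the groups did not overlap. The PON1 log2 fold change was 0.37 (SE 0.12), with an unadjusted p of 0.0141 and an adjusted p of 0.797 by edgeR, and it was 0.35 without control replicate 1. APOD, at about 1 CPM, APOL2 and SAA4 had log2 fold changes of 0.51, 0.14 and -0.33, that of SAA4 being -0.56 without control replicate 1.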

How the data were processed

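Total RNA of Huh7 cells was sequenced in 3 overexpression and 3 control libraries, which were grouped by title. In the table that the authors deposited, each gene has an unnormalized read count in whole numbers and an FPKM for every library. The submitters' processing notes name TopHat2 2.0.9 and hg38. The counting tool, strand setting, treatment of reads matching several genes and annotation release were not given in the sources used here. Of the gene IDs 98.5% were in GENCODE 29, from which strands, transcript and exon lengths and GC content were taken. Overlaps between genes were found from the gene positions that the authors deposited.

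Counts were analysed with edgeR 4.0.16 in R 4.3.3 (filterByExpr, minimum count 10, TMM, glmQLFit and glmQLFTest, group as the only term, two-sided, Benjamini-Hochberg adjustment over 15055 genes). The fit had a biological coefficient of variation of 16.1%, and CPM were scaled by TMM library sizes. Exact two-sided permutation tests of 3 against 3 used log2(CPM + 0.5). The scripts were tested on simulated data. Within groups, library pairs differed by a chi-square of 11.0 to 22.7 per degree of freedom, above sampling noise. Same-numbered libraries did not deviate together over the tested genes (correlations of deviations -0.036, -0.023 and -0.031). These correlations cannot exclude that the numbers pair the libraries, because trends of single libraries, such as that with length, can hide a shared deviation.

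Alternatives were RLE, upper-quartile or no scaling, DESeq2 1.42.0, other filters, limma 3.58.1 on log2(FPKM + 1), a replicate block, leaving out each library, summing overlapping genes, and a spline correction of length and GC content. All 10 members, SOX5 and PPARA were named, and in each of the 5 lists of related genes up to 4 genes with the smallest p. For 2 genes named by this rule no values are given here, and the counts of their list include them. Members and lists were chosen with earlier results of these data known.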

Additional observations from a re-analysis of the deposited data

How the results depend on the processing

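No apolipoprotein was called under any of the 16 alternatives, and 142 of 158 values of single members kept their direction. The number of members at an unadjusted p of 0.05 was 2, and it was 1 with upper-quartile normalization, library totals only, a mean of at least 50 counts, the replicate block or the length and GC correction, 4 without a filter, and 0 to 3 when one library was left out. Over all genes 6 were called, 28 by DESeq2, 3 after the length and GC correction and 4 to 16 when one library was left out, most without overexpression replicate 2. The members' median log2 fold change was -0.0051 after the length and GC correction and 0.054 (without control replicate 3) to 0.29 (without control replicate 2) when one library was left out.

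Of the 16 values that turned, APOH was 0.011 with upper-quartile normalization, 0.021 with library totals only, 0.0054 without a filter, 0.047 by limma on FPKM, 0.023 with the replicate block and -0.17 to 0.18 when one library was left out. APOC2 was 0.35 when summed with the read-through gene and -0.51 to 0.51 when one library was left out. APOA5 was -0.059 and APOC3 -0.061 after the length and GC correction, and leaving out one library gave -0.26 to 0.26 for APOA5 and -0.063 to 0.29 for APOC3. Apart from how these alternatives were built, the cause was not tested. APOA5 had no value by limma on FPKM or with a mean of at least 50 counts. The replicate block called 4 genes and gave the members a median of 0.17. With 3 libraries a group, exact permutation tests cannot go below 0.1, and counts under 50 limit APOA5.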
